A study of Homo sapiens with 8 samples.

Results

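The 3 Mb of chromosome 6 from 26000000 to 29000000 (build hg19) were examined for peaks of p53 chromatin immunoprecipitation with sequencing (ChIP-seq) in 293T cells. The window was set by position, as the stretch that holds the major clusters of replication-dependent histone genes and of tRNA genes. Earlier results of these data were known when it was chosen. Every peak of the 4 deposited lists that overlapped the window by at least 1 bp was a member. This gave 461 of 97582 peaks, of which 132 and 113 came from the doxorubicin libraries (Dox replicates 1 and 2) and 74 and 142 from the PBS libraries (PBS replicates 1 and 2). Peaks that overlapped between lists were merged into sites, and the window held 235 of 63890 sites. The rest of chromosome 6, with 4707 peaks and 3156 sites, was the comparison.

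The 293T line derives from human embryonic kidney and expresses large T antigen of simian virus, a viral protein that binds p53, and this applied to every library. Peak lists hold no expression, so the line could not be checked against marker genes. Dox cells received doxorubicin at 0.5 µg/ml for 24 h and PBS cells received 20 µl of phosphate-buffered saline, the vehicle, for the same time. There were 2 ChIP libraries per condition, replicate 1 from passage 3 and replicate 2 from passage 5, so that replicate number and passage cannot be told apart. Nothing in the labels says whether the libraries came from separate cultures, and p-values then measure only the spread between these libraries. The comparison asked where p53 was found on chromatin at baseline and under DNA damage.

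Among the genes of this region are 2 families whose products cells make in large amounts. Replication-dependent histone genes encode the core histones and linker histone H1 that package newly made DNA, are short and without introns, and are transcribed by RNA polymerase II mostly during S phase. Transfer RNA genes are transcribed by RNA polymerase III from promoter boxes inside the gene. p53 is a transcription factor that binds a pair of decamers, and it is also known to repress RNA polymerase III transcription through the initiation factor TFIIIB. Doxorubicin is a topoisomerase poison that breaks DNA and is widely used to activate p53.

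RefSeq on assembly GRCh38.p14 lists 55 protein-coding replication-dependent histone genes on chromosome 6 (6 H1, 12 H2A, 15 H2B, 10 H3 and 12 H4 genes by symbol). It places 155 of the 443 tRNA genes outside the mitochondrial genome on that chromosome. The peak positions are on hg19 and no annotation of that build was used, so no peak was assigned to a gene. The gene counts are of the whole chromosome, not of the window, and are description only. RefSeq promoter sequence, from 250 bases before to 50 bases after the start, was matched by symbol for 50 of the 55 histone genes, with 54 promoters. Searched on both strands, CCAAT was found in 47 of 54 histone promoters (87.0%), against 34.6% of all 35116 promoters in the same table. TATAAA was found in 36 (66.7%), against 11.5% of all promoters. An exact match to the p53 decamer was found in 4 (7.41%), against 6.63% of all promoters, and a pair of such decamers at most 13 bases apart was found in 0, against 10 of all promoters. The p53 decamer was thus about as frequent in histone promoters as elsewhere, while the CCAAT and TATA elements were more frequent. The core of the tRNA B box, GTTCGA, was in 0 histone promoters and 2.3% of all promoters, and the histone stem loop motif was in 0 and 0.117%. Both were rare in all promoters, so 0 of 54 cannot tell histone promoters from others.
The 2 histone promoters whose p53 decamer lies before the start are shown as RefSeq gives them (GRCh38.p14, chromosome 6, 5′ to 3′ in the direction of the gene, the 250 bases before the start), with the decamer in capitals. H3C2 encodes histone H3, is on the minus strand, and also has TATAAA and CCAAT. H2AC16 encodes histone H2A, is on the plus strand, and has CCAAT but not TATAAA.
H3C2: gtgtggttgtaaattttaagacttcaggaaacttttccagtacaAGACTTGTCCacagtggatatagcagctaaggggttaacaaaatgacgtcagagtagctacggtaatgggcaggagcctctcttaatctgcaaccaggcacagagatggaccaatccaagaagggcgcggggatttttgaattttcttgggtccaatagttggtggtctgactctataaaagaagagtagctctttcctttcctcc
H2AC16: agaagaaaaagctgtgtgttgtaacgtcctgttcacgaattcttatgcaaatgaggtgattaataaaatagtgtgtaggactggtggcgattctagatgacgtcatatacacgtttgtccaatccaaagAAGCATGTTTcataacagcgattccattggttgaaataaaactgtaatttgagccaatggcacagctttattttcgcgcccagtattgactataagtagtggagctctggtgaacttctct
A match describes these letters and does not place a p53 peak at either gene.

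Peaks were several times denser in the window than along the rest of chromosome 6 in each of the 4 libraries. Dox replicate 1 had 44.0 peaks per Mb in the window and 12.1 in the rest, a ratio of 3.64. Dox replicate 2 had 37.7 and 5.03 peaks per Mb, a ratio of 7.49. PBS replicate 1 had 24.7 and 3.32, a ratio of 7.43, and PBS replicate 2 had 47.3 and 7.62, a ratio of 6.21. The window took up 1.76% of the chromosome's span and held 6.11%, 11.8%, 11.7% and 9.99% of its peaks in the same order of libraries. The geometric mean ratio was 5.96, and the log2 ratio averaged 2.58 ± 0.49 (SD, n = 4; higher in 4 of 4 libraries; two-sided exact sign-flip permutation p = 0.125, the smallest that 4 libraries allow). Dox replicate 1, the longest list with 46658 peaks, had the lowest ratio. In its first 11304 peaks by p, the length of the shortest list, its ratio was 6.58. At that length Dox replicate 2 had a ratio of 6.94, and the PBS libraries had 7.43 and 7.13.

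**Figure D1:**
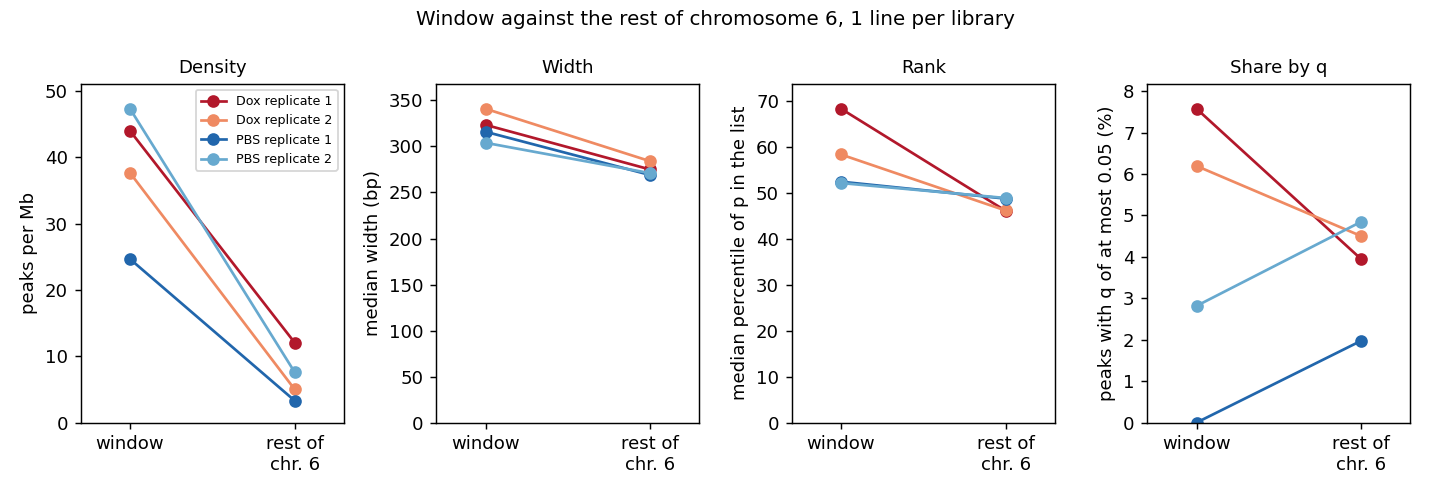
Peaks per Mb, median peak width in bp, median percentile of p within the list, and percentage of peaks with q of at most 0.05, for the window (left) and the rest of chromosome 6 (right), with 1 line per library. Density, width and percentile are higher in the window in all 4 libraries, and the share by q is higher in the window in both Dox libraries and lower in both PBS libraries.

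Chromosome 6 was cut into 56 whole tiles of 3 Mb in register with the window. The window held the most peak summits of all tiles in Dox replicate 2 (113) and in both PBS libraries (74 and 142). In Dox replicate 1 it was the fourth with 132 summits, behind the next tile toward higher coordinates with 186, the tile after that with 176, and a tile 15 Mb away with 137. The tile next to the window held 98 summits in Dox replicate 2 and 55 and 101 in the PBS libraries, second to the window each time. The tile before the window held 23 and 15 summits in the Dox libraries and 12 and 24 in the PBS libraries. The median tile held 20.5 and 10 summits in Dox and 7 and 17.5 in PBS. Summit counts thus stepped up at the start of the window in all 4 libraries and stayed above the median tile up to the tile 9 Mb away. That tile held 87 and 48 summits in Dox and 34 and 63 in PBS. The tile 12 Mb away held 32 and 11 in Dox and 5 and 9 in PBS, and the tile 15 Mb away 137 and 52 in Dox and 39 and 69 in PBS. High counts were therefore not confined to the window.

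**Figure D2:**
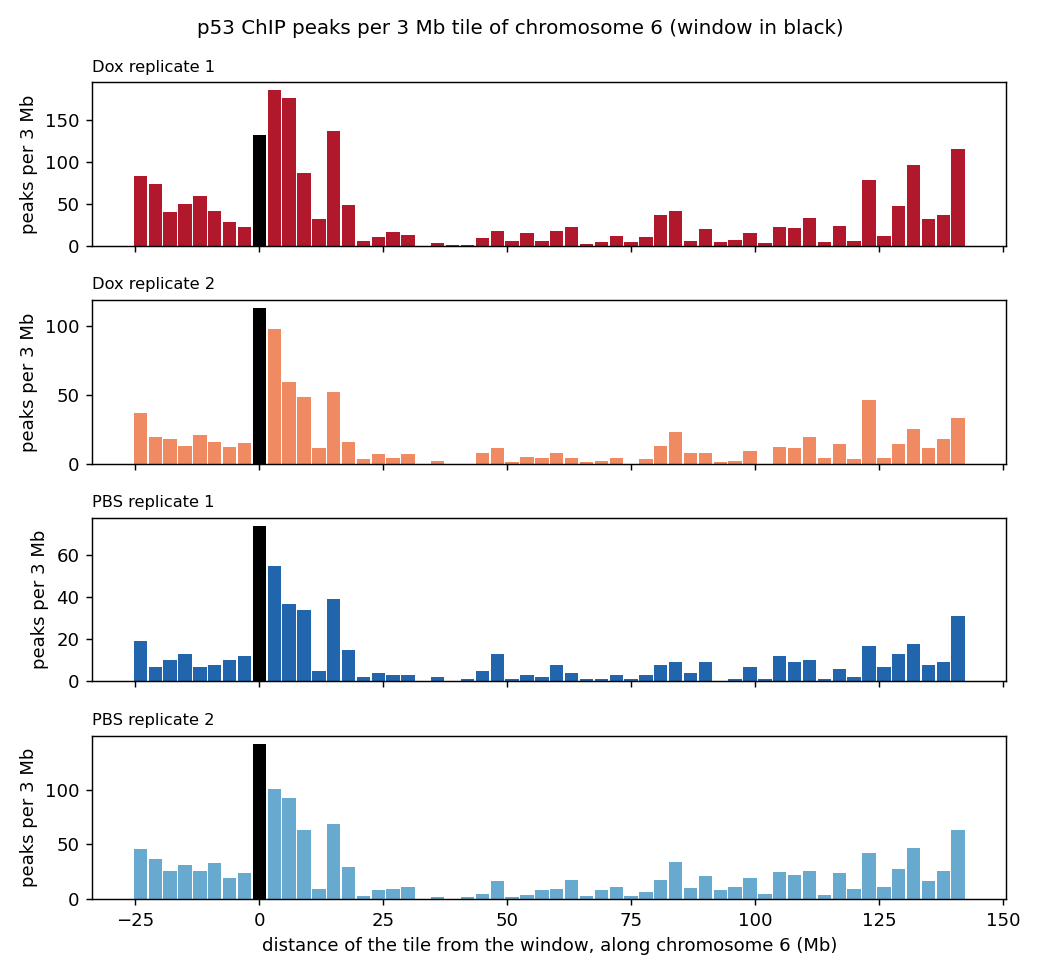
Number of peak summits in each 3 Mb tile of chromosome 6 (vertical axis) against the distance of the tile from the window in Mb (horizontal axis), with 1 panel per library and the window in black. The window is the highest tile in Dox replicate 2 and both PBS libraries, and the fourth tile in Dox replicate 1, where the next tile holds 186 summits.

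Inside the window the number of summits per 100 kb differed from tile to tile, with a highest tile of 12 and 11 in Dox and 7 and 12 in PBS, and a median tile of 3.5 and 3 in Dox and 2 and 4 in PBS. Of 30 tiles of 100 kb, 20 held a peak in all 4 libraries and 0 held none in every library. The number of tiles with a peak was 28 and 28 in the Dox libraries and 23 and 26 in the PBS libraries. Along the rest of the chromosome, 43.0% and 25.9% of tiles held a peak in Dox, and 19.7% and 37.0% in PBS, against 93.3%, 93.3%, 76.7% and 86.7% of window tiles in the same order.

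The 5 densest tiles, by mean share of the window's peaks, held 52 and 40 peaks in Dox (39.4% and 35.4% of the window) and 28 and 52 in PBS (37.8% and 36.6%), over 16.7% of its length. They were chosen on these same libraries, so their high share is a description. The first, from 28700000 to 28799999, held 12 and 9 peaks in Dox and 7 and 12 in PBS. The second, from 26100000 to 26199999, held 11 and 11 in Dox and 6 and 11 in PBS.
Those from 26300000 (10 and 9 in Dox, 3 and 11 in PBS) and from 27100000 (8 and 6 in Dox, 6 and 10 in PBS) followed. The fifth, from 27800000, held 11 and 5 in Dox and 6 and 8 in PBS. The tile after it, from 27900000 to 27999999, held 0 and 1 peaks in Dox and 0 and 0 in PBS, so a dense and a nearly empty tile stood side by side. The longest stretch without a summit was 186 and 248 kb in the Dox libraries and 284 and 184 kb in the PBS libraries. The median distance between neighbouring summits was 13.6 and 16.1 kb in Dox and 18.1 and 9.59 kb in PBS.

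**Figure D3:**
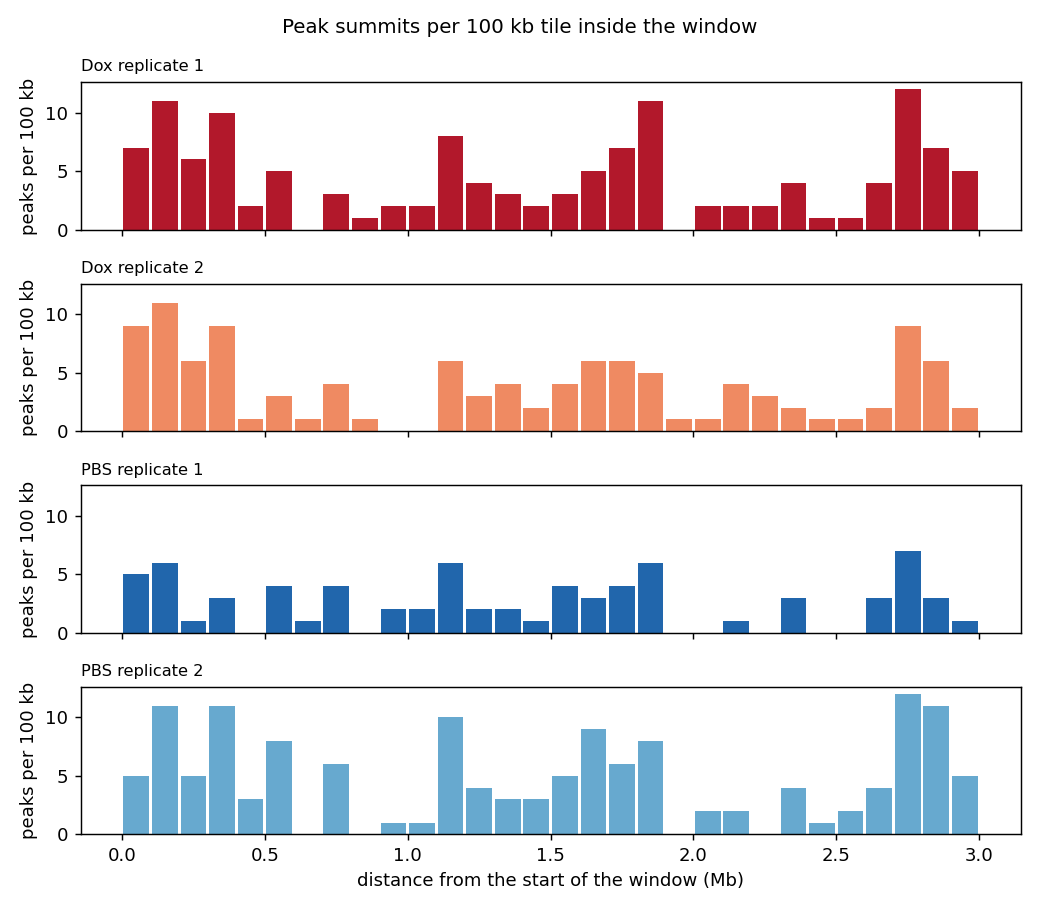
Number of peak summits in each 100 kb tile of the window (vertical axis) against distance from its start in Mb (horizontal axis), with 1 panel per library. The tile that starts 2.7 Mb into the window holds 7 to 12 summits in the 4 libraries, and the tile that starts at 1.9 Mb holds 0 or 1.

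Peaks in the window were wider than on the rest of the chromosome in every library. The median width was 324 and 341 bp in the window in the Dox libraries, against 275 and 284 bp in the rest. In the PBS libraries it was 316 and 304 bp in the window, against 269 and 271 bp in the rest. The difference averaged 46.4 ± 9.94 bp (SD, n = 4; wider in 4 of 4 libraries; two-sided exact sign-flip permutation p = 0.125). Wider peaks tend to have smaller p, so the lists were also split at percentile 50 of p. At or below it the window medians were 280 and 296 bp in Dox and 269 and 266 bp in PBS, against 240 and 258 bp in Dox and 250 and 245 bp in PBS for the rest. Above it they were 351 and 362 bp in Dox and 392 and 354 bp in PBS, against 344 and 324 bp in Dox and 306 and 316 bp in PBS. The window median was therefore the higher in all 4 libraries at either rank, with the narrowest gap above percentile 50 in Dox replicate 1. Among the 11304 peaks of smallest p, Dox replicate 1 had a median of 388 bp in the window and 389 bp in the rest, so its difference in width was not seen at that length. Peaks of 1 kb or more numbered 8 and 4 in Dox and 2 and 0 in PBS, which is 6.06%, 3.54%, 2.7% and 0% of window peaks, against 1.68%, 1.18%, 1.97% and 1.25% of peaks in the rest.

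Taken by p, the median window peak ranked somewhat above the middle of its list. The median percentile of p, with 100 the smallest p of a list, was 68.3 and 58.3 in the window in Dox, against 46.1 and 46.1 in the rest. In PBS it was 52.4 and 52.1 in the window, against 48.7 and 48.9 in the rest. The difference averaged 10.3 ± 8.92 points (SD, n = 4; higher in 4 of 4 libraries; two-sided exact sign-flip permutation p = 0.125). It depended on the measure. Ranked by fold enrichment, the authors' own ratio over local background, the window stood 15.7 points above the rest in Dox replicate 1 but -8.5 points in the second Dox library, and 0.633 and -7.61 points in the PBS libraries, a mean of 0.0666. At equal list length the difference by p was -0.469 and 20.7 points in the Dox libraries and 3.68 and 8.69 points in the PBS libraries. Among peaks of q of at most 0.05 only, the direction turned to a mean of -21.7 points over the 3 libraries with such a window peak. The median percentiles there were 51.5 and 32.2 in the window in Dox and 6.15 in PBS replicate 2, against 48.3 and 58.6 in Dox and 48.2 in PBS replicate 2 for the rest, from 10, 7 and 4 window peaks.

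The best window peak stood at rank 295 and 218 in the Dox lists and at 378 and 321 in the PBS lists. Among the first 1000 peaks of each list, 6 and 9 lay in the window in Dox and 6 and 1 in PBS, and among the first 5000, 27 and 41 in Dox and 29 and 25 in PBS. The excess of density was present at these ranks too, with ratios to the rest of 7.44 and 9.18 in Dox and 6.88 and 5.16 in PBS for the first 5000. For the first 1000 they were 8.19 and 10.5 in Dox and 8.19 and 1.22 in PBS, the last of these from 1 peak.

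Few window peaks passed a q of 0.05. In Dox replicate 1 they numbered 10 of 132 (7.58%, 95% Wilson interval 4.17 to 13.4), against 3.95% of peaks in the rest and 3.65% of the whole list. In Dox replicate 2 there were 7 of 113 (6.19%, 3.03 to 12.2), against 4.5% in the rest and 4.84% of the list. In PBS replicate 1 there were 0 of 74, which allows up to 4.05%, against 1.97% in the rest and 2.56% of the list. In PBS replicate 2 there were 4 of 142 (2.82%, 1.1 to 7.02), against 4.85% in the rest and 5.84% of the list. The share was above the rest in both Dox libraries and below it in both PBS libraries, but in each library the interval of the window included the share of the rest, apart from Dox replicate 1. Over the 4 libraries the difference averaged 0.329 ± 2.81 points (SD, n = 4; higher in 2 of 4 libraries; two-sided exact sign-flip permutation p = 1).

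With all deposited peaks, window sites were called in more than 1 library more often than sites elsewhere. Of the 235 window sites, 30 (12.8%, 95% Wilson interval 9.09 to 17.6) had a peak in all 4 libraries, against 164 of 3156 (5.2%, 4.48 to 6.03) in the rest of chromosome 6 and 6.01% of all sites. In 2 or more libraries there were 112 (47.7%, 41.4 to 54.0), against 832 (26.4%, 24.9 to 27.9) in the rest and 27.5% of all sites. These intervals cover counting error only and treat sites as independent, and the share is 1 value over the 4 libraries with no replicate of its own. At equal list length 14 of 144 window sites (9.72%, 5.88 to 15.7) were in all 4 libraries, against 7.79% in the rest, a gap within the interval. In 2 or more libraries it was then 45.8%, against 35.3%. With only peaks of q of at most 0.05, 0 of 13 window sites were in all 4 libraries, against 8.04% in the rest. That 0 was fixed, because PBS replicate 1 had 0 window peaks at that q, so it says nothing about recurrence. The share in 2 or more libraries was then 38.5%, against 38.4%.

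Counted by peaks, the share of window peaks that overlapped a peak of another library was 64.4% and 78.8% in Dox and 83.8% and 71.8% in PBS, against 34.1% and 66.8% in Dox and 75.8% and 55.2% in PBS for the rest. It was higher in the window in 4 of 4 libraries. Among peaks at percentile 50 of p or below it was 39.4% and 70.0% in Dox and 77.1% and 58.5% in PBS, against 13.1% and 52.6% in Dox and 62.3% and 40.7% in PBS. Peaks covered more of the window than of the rest, 1.77% and 1.47% of bases in Dox and 0.905% and 1.68% in PBS, against 0.413% and 0.175% in Dox and 0.113% and 0.259% in PBS. The part of this coverage in the overlap was not tested.
At the 30 sites called in all 4 libraries, the summits of the 4 libraries lay within a median of 156 bp of each other, against 174 bp at the 164 such sites in the rest. They lay within 200 bp at 17 of 30 window sites and at 87 of 164 sites in the rest.

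The leading window sites were those with a peak in all 4 libraries and the highest mean percentile. The first, from 27791693 to 27793098, stood 6.50-fold and 5.23-fold over background in Dox, against 4.81-fold and 3.92-fold in PBS. Its percentiles of p were 99.4 and 97.8 in Dox and 96.7 and 90.6 in PBS, so the conditions did not overlap there. Its strongest peak was 1380 and 957 bp wide in Dox and 358 and 478 bp wide in PBS, and the strongest summits of the 4 libraries were spread over 700 bp.
The second site, from 27859651 to 27861765, consisted of 9 peaks over 2115 bp, with percentiles of 99.0 and 95.3 in Dox and 82.1 and 94.4 in PBS. The third, from 28688107 to 28688843, had percentiles of 98.2 and 97.6 in Dox and 78.8 and 94.7 in PBS. All 4 of its summits fell within 81 bp, and it passed a q of 0.05 in both Dox libraries and in PBS replicate 2.
The fourth, from 26031540 to 26032455, had percentiles of 95.4 and 95.2 in Dox and 96.0 and 81.8 in PBS, and here the conditions overlapped. The fifth, from 27651957 to 27652705, had 98.2 and 90.1 in Dox and 82.1 and 92.2 in PBS, overlapping as well.

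Neighbouring sites lay at 27113016 to 27114233 and at 27114398 to 27115962, less than 200 bp apart. The first of this pair had percentiles of 96.5 and 96.3 in Dox and 86.0 and 77.9 in PBS, with no overlap between conditions. The second stood 5.28-fold and 5.26-fold over background in Dox, against 2.48-fold and 5.51-fold in PBS. Its percentiles were 98.9 and 98.7 in Dox and 51.1 and 98.6 in PBS, so PBS replicate 1 alone stood apart. Its summits lay within 55 bp of each other in the 4 libraries.
The remaining leading sites were from 27100111 to 27101287, from 27777721 to 27778770 and from 28303478 to 28304783. Their percentiles were 93.3 and 79.9 in Dox and 91.5 and 78.0 in PBS for the first, and 98.2 and 85.1 in Dox and 78.8 and 77.8 in PBS for the second. For the third they were 69.2 and 83.0 in Dox and 91.9 and 77.9 in PBS, and Dox replicate 1 was the lowest. Over the 30 sites called in all 4 libraries, both Dox percentiles were above both PBS percentiles at 12 (40.0%), against 26.8% of all 3840 such sites, and both PBS percentiles were above both Dox percentiles at 2 (6.67%), against 5.96%. Percentiles belong to lists of unequal length, so they are no measure of a change in binding.

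**Figure D4:**
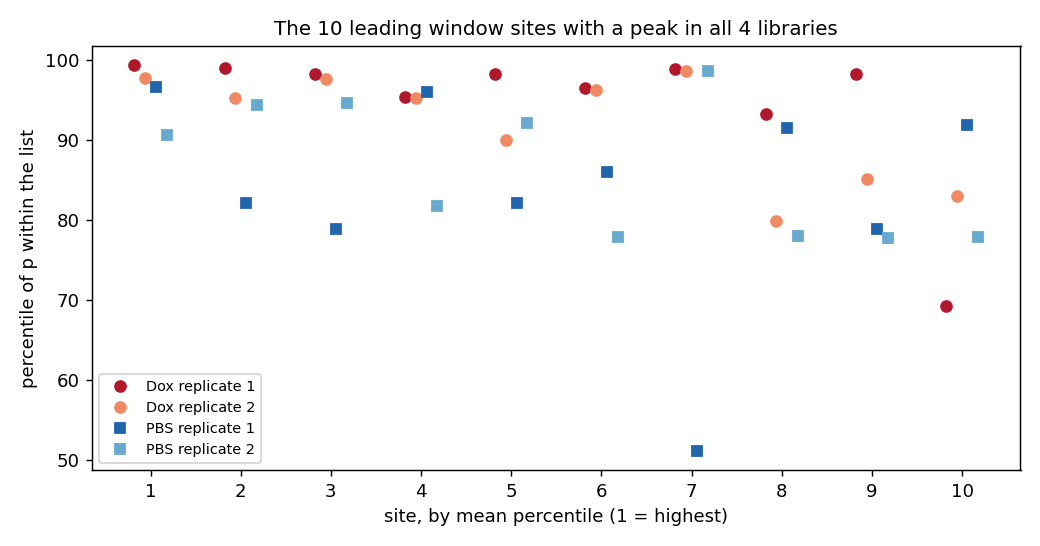
Percentile of p within its list (vertical axis) of the strongest peak at each of the 10 leading window sites (horizontal axis, in order of mean percentile), for Dox replicates (circles) and PBS replicates (squares). At 9 of the 10 sites Dox replicate 1 is above percentile 90, and at the seventh PBS replicate 1 lies at 51.1.

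The broadest window site, from 26156407 to 26159496, joined 11 peaks of the 4 libraries over 3090 bp. Its percentiles were 93.2 and 96.7 in Dox and 53.7 and 77.9 in PBS, and its strongest summits lay 1102 bp apart. Among the 5 broadest were also the leading sites that begin at 27859651, 27114398 and 27791693. The site from 28048114 to 28049533 reached 3.26-fold and 3.78-fold over background in Dox and 3.13-fold in PBS replicate 2, and had no peak in PBS replicate 1.

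A q of 0.05 was passed at 13 window sites (5.53%), against 3.79% of all sites. It was passed in a Dox library at 12 of the 235 window sites, against 3.01% of all sites. In a PBS library it was passed at 4 of the 235, against 2.08% of all sites. Over the whole series too, Dox had more. At 5 of the 235 it was passed in both Dox libraries, against 0.847% of all sites. These were the leading sites that begin at 27113016, 27114398, 27791693, 27859651 and 28688107. In both PBS libraries it was passed at 0 window sites, against 0.401% of all sites. That 0 was fixed, because PBS replicate 1 had 0 window peaks at that q. The site that passed it in a PBS library alone ran from 28601477 to 28601980. In the window 9 sites passed in a Dox but no PBS library and 1 in a PBS but no Dox library, against 1089 (1.70%) and 498 (0.779%) of all sites.

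The difference between Dox and PBS in the number of peaks in the window did not exceed the spread between replicates. Per 1000 peaks of the list, window peaks numbered 2.83 and 6.79 in Dox and 6.55 and 6.18 in PBS. The means were 4.81 ± 2.8 in Dox and 6.36 ± 0.259 in PBS (SD, n = 2 each), a difference of -1.55 (two-sided exact permutation p = 1, smallest possible 0.333). It came to -3.72 among the passage 3 libraries (number 1) and to 0.61 among those of passage 5 (number 2). Dox replicate 1 alone gave the lower Dox mean, and without it the difference was 0.427. The difference in median percentile between window and rest was 22.2 and 12.2 points in Dox and 3.68 and 3.26 points in PBS, without overlap between the conditions (difference 13.7, two-sided exact permutation p = 0.333, the smallest possible). This comparison was added after the values were seen, and at equal list length the Dox values were -0.469 and 20.7 and the conditions overlapped (difference 3.95, exact permutation p = 1).

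Sites in both Dox libraries and neither PBS library numbered 10 (4.26% of window sites), against 3.11% of all sites. The reverse, in both PBS libraries and neither Dox library, numbered 8 (3.4%), against 0.928% of all sites. Sites in both number 2 libraries alone numbered 20 (8.51%), against 2.40% of all sites. In both number 1 libraries alone there were 10 (4.26%), against 2.29%. Dox replicate 1 and PBS replicate 2 alone shared 8 (3.40%), against 4.96%. Dox replicate 2 and PBS replicate 1 alone shared 1 (0.426%), against 0.365%. A share above that of all sites was thus not particular to pairs within a condition. At equal list length the Dox-pair and PBS-pair sites numbered 5 and 8 of 144 window sites, and at a q of 0.05 they numbered 2 and 0 of 13. The PBS count at that q could only be 0, because PBS replicate 1 had 0 window peaks there. The shares over all sites were not computed at these settings, so these counts have no background beside them. The leading Dox-pair site, from 26204817 to 26205212, stood 2.79-fold and 3.14-fold over background, with summits 21 bp apart. It was followed by sites from 28220406 to 28220838, from 26323066 to 26323476, from 26033568 to 26034030 and from 26395831 to 26396338, all with enrichments between 2.39-fold and 3.58-fold. The leading PBS-pair sites ran from 26743691 to 26743909, with 2.73-fold and 2.78-fold enrichment, from 27198033 to 27198429, from 26571900 to 26572368 and from 26305313 to 26305691. One more PBS-pair site, from 27570162 to 27570457, was at 4.56-fold and percentile 96.4 in PBS replicate 1 but at 1.86-fold and percentile 6.35 in PBS replicate 2. None of these 10 named sites passed a q of 0.05 in any library.

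In the authors' deposited table for each condition, the peaks of the 2 replicates are matched, and the table gives the irreproducible discovery rate (IDR) of a pair, the estimated share of pairs at that level that would not be reproducible. The authors' deposited tables hold 58 Dox pairs and 47 PBS pairs in the window. Of the Dox pairs, 41 had an IDR of at most 0.05 (70.7%, 95% Wilson interval 58.0 to 80.8), against 30.6% (26.3 to 35.3) of 392 pairs in the rest of chromosome 6 and 27.5% of the whole Dox table. Of the PBS pairs, 1 did (2.13%, 0.377 to 11.1), against 11.6% (8.51 to 15.7) of 310 pairs in the rest and 15.0% of the whole PBS table. The window share thus lay above that of the rest in the Dox table and below it in the PBS table.

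The p of the window pairs was close to that of the others. The median −log10 p of the paired peaks was 3.25 and 3.13 in the window and 3.04 and 3.05 in the rest for Dox, and 2.44 and 3.38 in the window and 2.61 and 3.33 in the rest for PBS. The median IDR in the authors' deposited tables was 0.0266 in the window and 0.17 in the rest for Dox, and 0.505 and 0.412 for PBS. With an IDR of at most 0.01 the shares were 22.4% in the window and 14.8% in the rest for Dox, and 0% and 6.13% for PBS. With an IDR of at most 0.1, Dox had 81.0% and 43.1%, and PBS had 2.13% and 15.2%. In the authors' deposited tables the 5 Dox pairs of lowest IDR began at 27791719, 27114403, 27859651, 28688107 and 26705129, and the PBS pair that passed began at 27791693. IDR was estimated in each table on its own, with 1 table per condition, so the shares were not tested between conditions. The pairs also share their libraries, so the intervals cover counting error only.

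**Figure D5:**
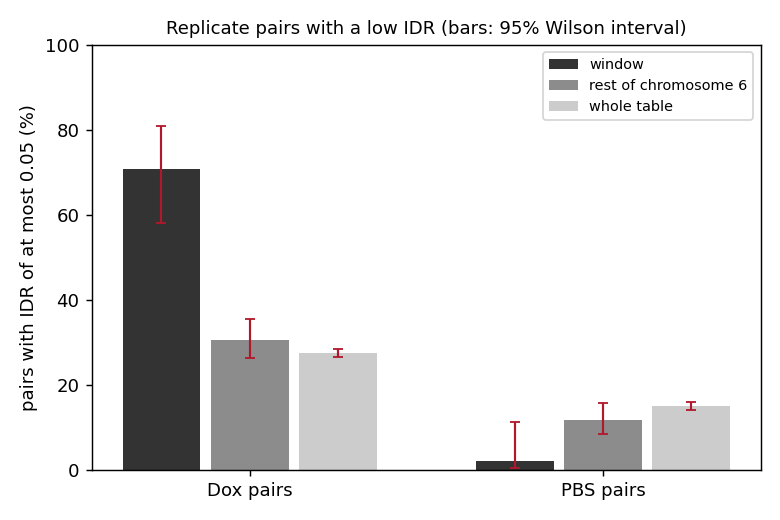
Percentage of replicate pairs with an IDR of at most 0.05 (vertical axis) among Dox pairs and PBS pairs, for the window, the rest of chromosome 6 and the whole table, with 95% Wilson intervals. In Dox the window stands at 70.7% and the rest at 30.6%, and in PBS the window stands at 2.13% and the rest at 11.6%.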

How the data were processed

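p53 ChIP-seq was analysed in 4 libraries of 293T cells. Input samples (4) were left out. The submitters' processing notes name BWA, MACS2 and hg19, without a version or filter that could be given here. The authors deposited 1 peak list per library, and its peak names state a threshold of p under 0.05. Each deposited peak has a fold enrichment (a ratio over the local background at the summit) and its p-value and q-value as −log10. The authors deposited 1 table of replicate pairs per condition, with −log10 of each peak's p-value and with IDR as a fraction, per the file headers. Folds and p were ranked within 1 list, and where they are given for several lists they are side by side as values, with no test. Read depth is unknown from these files.

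Peaks were kept as deposited, with positions written 1-based. The chromosome's span ran from the first peak start to the last peak end of the 4 lists. Percentiles of p used all peaks of a list, and ties shared a rank. Peaks overlapping by 1 bp formed sites. Densities, median widths, percentiles and shares were compared per library by exact sign-flip permutation over the 4 libraries, and conditions by exact permutation of 2 against 2. Overlap and density steps were tested on simulated lists. The tools were scipy 1.17.1, pandas 2.3.3 and numpy 2.4.6 under Python 3.11.15, with figures from matplotlib 3.10.9. Alternatives covered q, list length, the comparison region, the site rule, the rank measure, replicate pairing and each library left out. Sites named were the 10 leading sites in all 4 libraries, the 5 broadest, up to 5 exclusive to each condition, and the 5 densest tiles. The window and lists were chosen with earlier results of these data known. The planned search for genes and motifs at the peaks was not run, because it needed sequence and annotation of hg19, and the promoter motifs were searched in RefSeq sequence in its place, a search added after the files were seen.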

Additional observations from a re-analysis of the deposited data

Results flagged for a closer look

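The share of peaks with a q of at most 0.05, window minus rest of chromosome 6, was 3.63 and 1.69 points in Dox replicates 1 and 2 and -1.97 and -2.03 points in PBS replicates 1 and 2. It was picked out because both Dox libraries lay above 0 and both PBS libraries below 0. The difference between the conditions was 4.66 points (two-sided exact permutation p = 0.333, the smallest that 2 libraries against 2 allow), so the test could not pass a threshold of 0.05. The window counts behind it were 10 and 7 peaks in Dox and 0 and 4 in PBS. Without each library in turn the difference was 3.7 to 5.63 points, and at equal list length it was 5.75. The rule that picked it out fixes that p, and also the sign of the difference when a library is left out. Neither is further evidence for a difference between the conditions.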

How the results depend on the processing

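The geometric mean density ratio stayed above 1 under all 10 alternatives, between 3.28 (only 100 kb tiles with a peak) and 7.02. The mean width difference stayed above 0, between 36.8 and 282 bp, the latter at a q of at most 0.05 without PBS replicate 1. With only peaks of q of at most 0.05, the percentile difference was -21.7 points, and window peaks per 1000 were 5.79 higher in Dox than in PBS. The difference in the share of sites in all 4 libraries was -8.04 points (0 of 13 window sites). Of these 13 sites, 2 were Dox-pair sites and 0 were PBS-pair sites, with no share over all sites computed at that q. PBS replicate 1 had 0 window peaks at that q, against 11 in the rest, and fewer peaks are left by construction. It was therefore left out of the density, width and percentile values there, which cover 3 libraries. The 0 window sites in all 4 libraries and the 0 PBS-pair sites were fixed by its lack of window peaks. At equal list length the difference in sites in all 4 libraries was 1.93 points, the Dox-pair sites numbered 5, and the difference in the share by q was -0.649 points. Against the other chromosomes that share differed by -0.103 points. Of the PBS pairs in the window, 1 had an IDR of at most 0.05. Without each library in turn, the difference in the share by q ran from -0.771 to 1.12 points and window peaks per 1000 in Dox minus PBS from -3.53 to 0.427. Otherwise the cause was not tested. No list had several peaks on 1 interval, and membership by summit changed no value.

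Replicate numbers share a passage in the labels. With the replicate number as a block, the difference in window peaks per 1000 was -1.55 (exact sign-flip permutation p = 1, smallest possible 0.5), and the pairing changed no call. Over 26031 sites at equal length, replicate 1 minus 2 in Dox correlated with the same difference in PBS at 0.0743. The IDR limits of 0.01 and 0.1 and the Dox minus PBS differences in percentile and share by q were chosen after seeing the data or earlier results. Few libraries and weak peaks limit the precision.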
